A study of Mus musculus with 6 samples.

Results

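The genes described here are 33 genes of glycolysis and of the transcriptional response to hypoxia, out of 20659 genes named on the arrays. They were listed by name, 23 as glycolysis genes (the glucose transporter Slc2a1, the enzymes from hexokinase to lactate dehydrogenase, their regulators and the lactate exporter Slc16a3) and 10 as hypoxia response genes. A probe was assigned to a gene through the RefSeq accession it was designed on, which gave 54 probes for the 33 genes. All 32 genes with a probe well above background were well above background on all 6 arrays. The other one, Egln1, an oxygen-dependent prolyl hydroxylase that marks HIF proteins for degradation, had a single probe, which was not well above background on any array and was not tested.

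Glycolysis converts glucose to pyruvate in the cytosol and yields ATP without oxygen, and its pyruvate is either oxidized in mitochondria or reduced to lactate and exported. Osteoblasts are known as strongly glycolytic cells even in the presence of oxygen. When oxygen falls, the prolyl hydroxylases slow down, the transcription factor subunit HIF-1α (gene Hif1a) accumulates, and it binds hypoxia response elements at many glycolysis genes and at genes such as Bnip3, Egln3 and Ankrd37.

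Osteoblasts were isolated from the calvaria of newborn CD1 mice, 2 to 5 days old, and RNA of each culture was labeled with Cy3 and hybridized to a 1-color Agilent array. There were 2 arrays of undifferentiated osteoblasts (grown to confluence in serum-containing MEM), 2 of osteoblasts kept for 30 days in differentiation medium, and 2 of osteoblasts kept for 30 days in differentiation medium with cabozantinib (XL184), a tyrosine kinase inhibitor with high affinity for VEGFR2 and MET, at 100 nM per the study's methods. The study asked how cabozantinib alters the gene expression of differentiating osteoblasts. Nothing in the labels says whether the 2 cultures of a group came from separate animals, so p values measure the spread between these cultures, and the number of arrays limits the precision of every value.

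On the 6 arrays, 58.8% to 72.9% of the spots were well above background and no spot was saturated. The 4 arrays without cabozantinib shared 1 scan date in the file headers and the 2 cabozantinib arrays another, so scan and cabozantinib cannot be told apart. Values are log2 signals relative to the 75th percentile of each array, a scale on which 0 is that percentile and a step of 1 is a doubling. They compare arrays for 1 probe and not 1 probe with another, and every group has n = 2 arrays. A difference was called at an adjusted p under 0.05 in limma, fitted to all 27196 probes kept (23058 genes) with replicate number as a blocking term, and each gene is given by its brightest probe. Levels are those of bulk cultures, in which fewer cells of a type and less RNA per cell cannot be told apart. Of the osteoblast markers, all 11 with a probe were above background on at least 1 array. Their summed signal (in multiples of the 75th percentile) was 574 and 270 in undifferentiated and 406 and 597 in differentiated cultures. It was 503 and 595 in cabozantinib-treated ones, and the groups overlapped. Of the single osteoblast markers, 5 rose and 1 fell with differentiation. Markers of other cell types differed as well. The summed signal of 8 adipocyte markers (in multiples of the 75th percentile) was 5.06 and 5.64 in undifferentiated, 66.1 and 92.2 in differentiated and 56.0 and 56.2 in cabozantinib-treated cultures, and 5 of 7 tested rose with differentiation. Summed macrophage and osteoclast markers were 97.7 and 54.6, then 315 and 474, then 282 and 352, and 3 of 8 tested rose. Proliferation markers went the other way, from 55.2 and 43.3 to 19.1 and 26.3, with 25.4 and 30.7 under cabozantinib, and 2 of 10 fell. With differentiation 1 endothelial marker of 4, 3 chondrocyte markers of 7, 2 neural markers of 8 and 1 muscle marker of 7 rose, 1 neural and 1 muscle marker fell, and no erythroid marker of 4 was called. Between cabozantinib and control, 1 adipocyte and 1 endothelial marker fell and none of the other lists had a call. Among all genes 9.72% were called with differentiation and 2.48% between cabozantinib and control. The part of the other cell types in the results below was not tested.

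The start regions of the genes were searched for the core of the hypoxia response element, the letters ACGTG or GCGTG on either strand (CACGT or CACGC when read from the other strand), in RefSeq windows of 300 bases, 250 before to 50 after a transcript start (GRCm38.p6). A window was given for 32 of the 33 genes, Ndrg1 being the one without. The core occurred in at least 1 window of 28 of these 32 genes (87.5%), in all 9 hypoxia response genes and in 19 of 23 glycolysis genes. For comparison, 59.7% of the 12788 genes tested on the arrays that have a window, and 43.8% of all 32851 windows, hold it. The glycolysis genes without a match were Gpi1, Tpi1, Eno2 and Bpgm. Some genes have several windows, and a match describes the letters and not a bound site. CACGTG, which reads ACGTG on both strands, is counted as 2 matches. The sequences of the 4 genes with the lowest differences under cabozantinib, and of Bnip3 for its 5 matches, follow, 5′ to 3′ on the gene's strand and ending at the base before the transcript start, with the core in capitals. They are Egln3 (chr12:54203875-54204124, minus strand), Slc2a1 (chr4:119108495-119108744, plus strand), Hk2 (chr6:82774455-82774704, minus strand) and Bnip3 (chr7:138909507-138909756, minus strand). For Ankrd37 they are the last 30 bases before the transcript start of its window (chr8:45999851-45999880, minus strand). The span of Ankrd37 (chr8:45996908-46000414) reaches further out than that start, so this stretch lies inside the gene's span.
Egln3: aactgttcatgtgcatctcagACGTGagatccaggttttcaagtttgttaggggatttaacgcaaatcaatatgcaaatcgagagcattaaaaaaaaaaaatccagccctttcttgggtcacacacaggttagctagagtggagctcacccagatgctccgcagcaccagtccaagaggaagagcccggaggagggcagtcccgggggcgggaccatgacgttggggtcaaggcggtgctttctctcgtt
Slc2a1: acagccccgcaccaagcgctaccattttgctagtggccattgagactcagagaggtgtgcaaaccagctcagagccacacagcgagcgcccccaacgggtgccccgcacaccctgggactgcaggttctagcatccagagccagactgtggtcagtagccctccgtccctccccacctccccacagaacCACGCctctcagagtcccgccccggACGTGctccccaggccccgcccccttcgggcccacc
Hk2: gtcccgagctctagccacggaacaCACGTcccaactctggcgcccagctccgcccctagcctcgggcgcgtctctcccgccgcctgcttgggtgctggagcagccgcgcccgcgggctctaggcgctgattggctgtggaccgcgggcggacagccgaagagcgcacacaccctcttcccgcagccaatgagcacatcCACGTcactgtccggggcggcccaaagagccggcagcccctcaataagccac
Bnip3: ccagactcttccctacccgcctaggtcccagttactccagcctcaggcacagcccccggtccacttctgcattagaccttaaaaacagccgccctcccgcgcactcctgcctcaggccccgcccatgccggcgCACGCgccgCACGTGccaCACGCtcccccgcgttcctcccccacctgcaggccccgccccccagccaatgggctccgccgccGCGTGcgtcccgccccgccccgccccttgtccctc
Ankrd37: ggctgcacatgtcagtgtttgggtACGTGa
Counted from the transcript start of the window, the nearest core began at position -229 in Egln3, -36 in Slc2a1, -52 in Hk2 and -35 in Bnip3. It began at -6 in Ankrd37, whose whole window held 4 matches. All 5 matches of Bnip3 lay before the start, and Egln3 held 1.

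**Figure D1:**
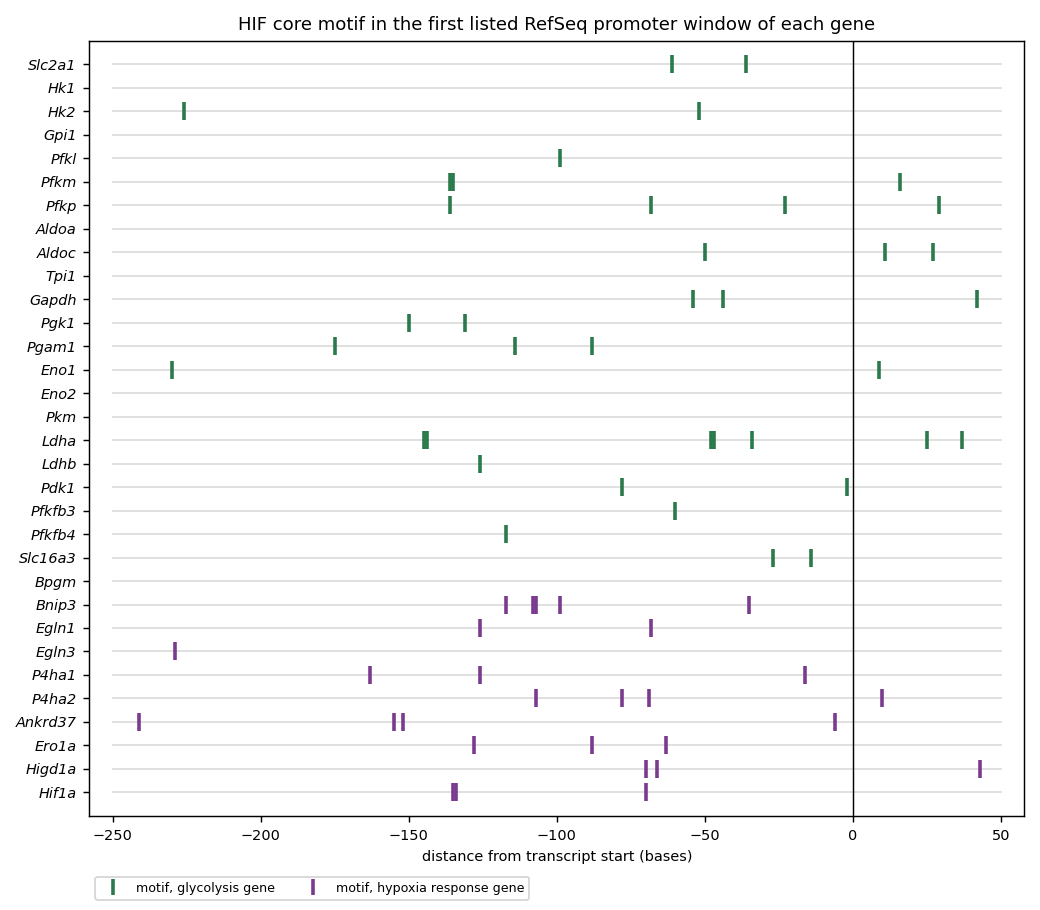
Positions of the core ACGTG or GCGTG (either strand) in the first listed RefSeq window of 32 genes, in bases from the transcript start (vertical line); each tick is 1 match and each grey line 1 window. Hypoxia response genes (purple) have a match in all 9 windows, and several glycolysis genes (green), such as Tpi1 and Bpgm, have none.

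The first comparison asked how these genes differ between differentiated and undifferentiated osteoblasts. After 30 days of differentiation the array signals of 4 enzymes and transporters of the pathway were lower, those of Pfkl, Tpi1, Pkm and Slc16a3, and Pfkfb4 and the hypoxia-inducible gene Ankrd37 were higher. These 6 were the called genes among the 32 tested, 2 higher and 4 lower, against 9.72% called among all genes (5.26% higher and 4.46% lower). The median difference was -0.22 over the 23 glycolysis genes and -0.30 over the 9 hypoxia response genes tested, and 0.11 over all genes. Values of the 2 groups did not overlap for 18 of the 32 genes (5 higher and 13 lower), against 45.3% of all genes (25.9% higher and 19.4% lower).

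None of the members for glucose uptake and the first steps, Slc2a1, Hk1, Hk2 and Gpi1, passed the test. Slc2a1, the transporter GLUT1, measured 5.54 and 5.08 in undifferentiated and 4.77 and 5.41 in differentiated cultures. Hk2, the inducible hexokinase that phosphorylates glucose, measured 3.31 and 2.70 and then 2.95 and 3.45. The arrays of the 2 groups overlapped for both genes, as they did for Hk1, the housekeeping hexokinase, and Gpi1, which isomerizes glucose 6-phosphate. Their differences were -0.22 for Slc2a1, 0.19 for Hk2, -0.19 for Hk1 and -0.32 for Gpi1, with adjusted p values from 0.908 to 0.951.

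The largest fall with differentiation at the brightest probes was at phosphofructokinase, the committed step of the pathway. Pfkl, the liver-type subunit (chr10:77986947-78009807), measured 1.13 and 1.19 in undifferentiated, -2.93 and -2.24 in differentiated and -2.41 and -2.61 in cabozantinib-treated cultures. Both undifferentiated arrays lay more than 3 units above the other 4, at the single probe of this gene. Pfkl fell by 3.75 on the log2 scale with differentiation (13.4-fold lower, SE 0.50, adjusted p = 0.00197), and it was called in all 16 alternative settings of the limma fit. These settings are not all separate checks. In each comparison the fit to the 4 arrays compared and the fits without either array of the third group gave the same result. The methods' t-test, 2-tailed and paired by replicate number, called none of the 32 genes in this comparison even at an unadjusted p under 0.05. That threshold was passed by 5.59% of all genes. The muscle subunit Pfkm measured 0.76 and 1.08 in undifferentiated and 0.50 and 0.71 in differentiated cultures, a difference of -0.32 (adjusted p = 0.865). The platelet subunit Pfkp differed by 0.14 (adjusted p = 0.967) at its brightest probe. Both genes missed the threshold, and a test of the subunits against each other was not made.

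Pfkfb3 and Pfkfb4 make and remove fructose 2,6-bisphosphate, the activator of phosphofructokinase. Pfkfb4 (chr9:108988272-109032236) measured 0.89 and -0.03 in undifferentiated and 2.22 and 2.67 in differentiated cultures. It rose 4.04-fold, a difference of 2.01 (SE 0.54, adjusted p = 0.0455). All 4 arrays of differentiated cultures, with and without cabozantinib, lay above both undifferentiated arrays. The call was close to the threshold and was lost in 11 of the 16 limma alternatives, with quantile normalization (adjusted p = 0.0659) and without any 1 of 5 arrays (adjusted p from 0.0584 to 0.435) among them, and held without undifferentiated replicate 1. The size rested on the undifferentiated arrays, with 2.70 without replicate 1 and 1.32 without replicate 2. Pfkfb3 differed by 0.45 (adjusted p = 0.794) and its groups overlapped.

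In the middle of the pathway, aldolase splits the 6-carbon sugar and triosephosphate isomerase interconverts the products. Tpi1 (chr6:124810586-124814158) measured 4.76 and 4.45 in undifferentiated and 2.10 and 2.41 in differentiated cultures. It fell by 2.35 (5.09-fold lower, SE 0.49, adjusted p = 0.0146), and without 1 of the differentiated arrays the call was lost (adjusted p = 0.174 without replicate 1 and 0.0694 without replicate 2). Aldoa, the main aldolase of most tissues, overlapped between groups and differed by -0.39 (adjusted p = 0.865). Aldoc, the aldolase best known from brain, measured 2.49 and 1.45 in undifferentiated and 3.29 and 3.50 in differentiated cultures. Its groups did not overlap, yet the difference of 1.42 missed the threshold (SE 0.55, adjusted p = 0.16).

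The enzymes of the ATP-yielding steps were mixed. Pkm, the pyruvate kinase of nonliver tissues (chr9:59656576-59679372), measured 4.45 and 3.79 in undifferentiated and 1.42 and 1.85 in differentiated cultures. It fell by 2.48 (5.59-fold lower, SE 0.52, adjusted p = 0.0149), a call lost without differentiated replicate 1 (adjusted p = 0.15). Pgk1, phosphoglycerate kinase, measured 5.91 and 5.87 and then 4.63 and 3.70. Its undifferentiated arrays were nearly equal and both lay above the differentiated ones, but the difference of -1.72 was just short of the threshold (SE 0.51, adjusted p = 0.0654). The mutase Pgam1 differed by -0.61 (adjusted p = 0.62) without overlap between groups. The enolases Eno1 and Eno2 differed by -0.16 and 0.69, with overlap. Gapdh, the dehydrogenase often used as a reference gene, differed by -0.11 (adjusted p = 0.977) at its brightest probe, and its other probes did not follow, as described below. Bpgm, which makes 2,3-bisphosphoglycerate and is best known from red cells, measured -0.52 and -0.62 in undifferentiated and -1.60 and -1.92 in differentiated cultures. The 2 groups did not overlap, with a difference of -1.19 (adjusted p = 0.183) that missed the threshold.

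At the exit of the pathway, the lactate exporter was the called gene at the brightest probes. Slc16a3, the monocarboxylate transporter MCT4 (chr11:120948484-120959000), measured 7.18 and 5.71 in undifferentiated, 3.64 and 4.44 in differentiated and 2.44 and 2.98 in cabozantinib-treated cultures. The 3 groups were in that order with no overlap. Slc16a3 fell by 2.41 with differentiation (5.3-fold lower, SE 0.62, adjusted p = 0.0385), and the call was lost without undifferentiated replicate 1 (-1.34, adjusted p = 0.0549) and without differentiated replicate 1 (-1.77, adjusted p = 0.338). Without replicate 2 of either group it was -3.48 (undifferentiated) and -3.04 (differentiated). The call was also lost with normexp background correction (adjusted p = 0.0794) and with no filter on dim probes (adjusted p = 0.0933). A second Slc16a3 probe gave -2.30 and was not called (adjusted p = 0.055). Ldha, the lactate dehydrogenase subunit that favors lactate formation, differed by 0.11 (adjusted p = 0.977) at its brightest probe. Ldhb, the subunit that favors lactate oxidation, measured 4.79 and 3.67 in undifferentiated and 5.40 and 6.07 in differentiated cultures. Its groups did not overlap and the difference of 1.50 missed the threshold (SE 0.58, adjusted p = 0.157). Pdk1, the kinase that shuts pyruvate out of mitochondrial oxidation, measured -0.28 and 0.62 and then -1.03 and -1.39, a difference of -1.38 (adjusted p = 0.158) without overlap.

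**Figure D2:**
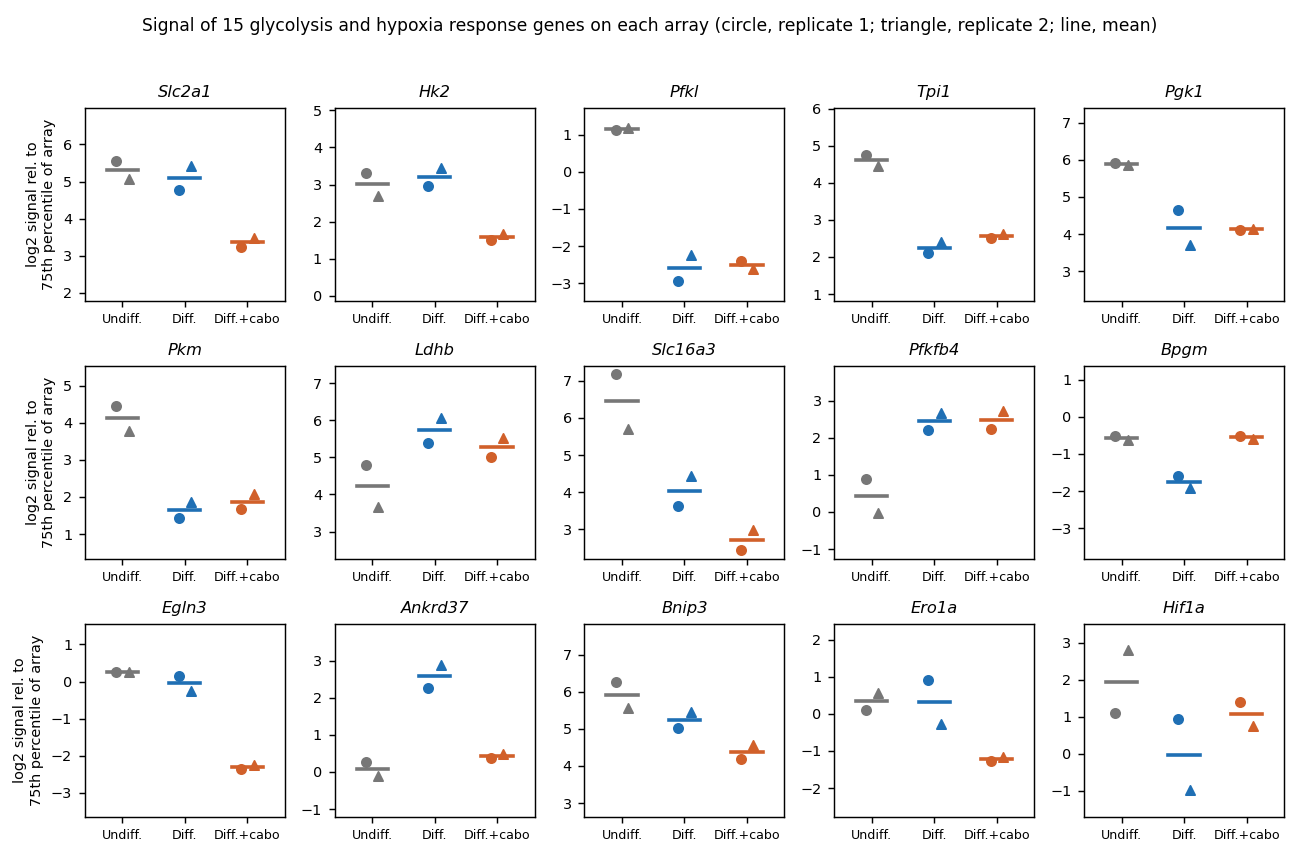
Log2 signal relative to the 75th percentile of the array for 15 genes on the 6 arrays (Undiff., undifferentiated; Diff., differentiated for 30 days; Diff.+cabo, the same with cabozantinib). Circles are replicate 1, triangles replicate 2 and lines group means, and all panels span the same number of log2 units. Pfkl, Tpi1 and Pkm are higher on the undifferentiated than on the other 4 arrays, Egln3, Slc2a1 and Hk2 are lowest on the cabozantinib arrays, and Ankrd37 is high only on the 2 differentiated control arrays.

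Among the hypoxia response genes the called difference with differentiation was a rise. Ankrd37, a small ankyrin repeat protein and established HIF-1 target, measured 0.26 and -0.10 in undifferentiated, 2.26 and 2.89 in differentiated and 0.37 and 0.47 in cabozantinib-treated cultures. Only the 2 differentiated control arrays were above 1. It rose 5.65-fold, a difference of 2.50 (SE 0.51, adjusted p = 0.0127), and the call was lost without undifferentiated replicate 2 (adjusted p = 0.0534) and without differentiated replicate 2 (adjusted p = 0.197). Hif1a itself measured 1.09 and 2.79 in undifferentiated and 0.94 and -0.98 in differentiated cultures. These were the widest gaps between replicates of any member, and the difference of -1.96 was about as large as these gaps (SE 0.76, adjusted p = 0.162). Of the other 7 genes, 6 had negative differences, from -1.02 for the collagen prolyl hydroxylase P4ha2 to -0.01 for the endoplasmic reticulum oxidase Ero1a, and none passed the test. The remaining one, Ndrg1, a stress-responsive differentiation gene, differed by 0.48 (adjusted p = 0.729) with no overlap. Egln3, the prolyl hydroxylase that HIF induces, measured 0.25 and 0.27 in undifferentiated and 0.16 and -0.24 in differentiated cultures, a difference of -0.30 (adjusted p = 0.881).

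The second comparison asked how these genes differ between osteoblasts differentiated with and without cabozantinib. Egln3 fell, and the glucose transporter Slc2a1, the hexokinase Hk2, Ankrd37 and Ero1a had the next lowest values without passing the threshold. Egln3 was the 1 called gene among the 32 tested, against 2.48% of all genes (0.117% higher and 2.36% lower). The median gene itself lay at -0.29 on this scale, and at -0.08 after quantile normalization, so differences relative to the median gene are given as well. Over the 9 hypoxia response genes the median was -0.66 (-0.37 when set against the median gene), and 8 of 9 were below 0, as were 67.8% of all genes, while 6 of 9 were below the median gene. Over the 23 glycolysis genes the median was -0.18, or 0.11 relative to the median gene, so the direction of that list turned with the reference. With only probes above background on all 6 arrays, as the members' were, the median over all genes was also -0.18.

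Egln3 (chr12:54178981-54203874) measured 0.16 and -0.24 in differentiated control and -2.35 and -2.25 in cabozantinib-treated cultures. The 2 cabozantinib arrays were 0.095 apart and both lay well below the 4 others. It fell by 2.26 (4.78-fold lower, SE 0.49, adjusted p = 0.0487; -1.97 relative to the median gene). A second Egln3 probe measured -1.87 and -2.06 in control and -4.49 and -4.67 in cabozantinib-treated cultures, with a difference of -2.62 (adjusted p = 0.0477). The difference was between -2.49 and -1.95 in all 16 limma alternatives, but the call held in 6, and adjusted p was 0.178 with quantile normalization, 0.231 and 0.30 without differentiated replicates 1 and 2, and 0.584 and 0.234 without cabozantinib replicates 1 and 2.

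Ankrd37 was back near the undifferentiated level on both cabozantinib arrays. Its difference from the differentiated control was -2.15 (SE 0.51, adjusted p = 0.0529), 4.45-fold lower and just short of the threshold. The comparison shares the differentiated arrays with the first one, in which Ankrd37 rose. Ero1a, which oxidizes protein disulfides during secretory protein folding, measured 0.92 and -0.27 in control and -1.26 and -1.17 in cabozantinib-treated cultures. The 2 control arrays were more than 1 unit apart, both above the cabozantinib arrays, with a difference of -1.54 (SE 0.56, adjusted p = 0.132). Bnip3, a mitophagy receptor, measured 5.02 and 5.44 and 4.19 and 4.55, a difference of -0.86 (adjusted p = 0.387). Its other 2 probes gave -0.88 (adjusted p = 0.322) and -0.73 (adjusted p = 0.465). Ndrg1, Higd1a (a mitochondrial protein induced by hypoxia), P4ha1 and P4ha2 had differences of -0.62, -0.66, -0.26 and -0.24, none of which passed. A second Higd1a probe measured 1.86 and 1.74 in control and 1.84 and 1.87 with cabozantinib, with overlap. P4ha1 and P4ha2 are the catalytic subunits of collagen prolyl hydroxylase, and relative to the median gene they were at 0.02 and 0.05. At the brightest probes of these 8 genes every cabozantinib array lay below both control arrays, a pattern that 44.2% of all genes also showed. Hif1a alone was higher, at 1.41 and 0.75 against 0.94 and -0.98, with overlapping groups and a difference of 1.10 (adjusted p = 0.469).

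None of the 23 glycolysis genes was called between cabozantinib and control. With no replicate block 2 were called, and with only the 4 arrays compared 6. After an exchange of numbers between both undifferentiated arrays (tried after seeing the data) 6 were called. Calls over all 23058 genes rose as well, from 572 to 2947, 5544 and 7049 in the same order. The absence of calls thus depended on the block and on the arrays fitted, as did the number of calls over all genes. At an unadjusted p under 0.05 limma gave 3 of the 23, Slc2a1, Hk2 and Bpgm, against 23.4% of all genes. The methods' t-test gave 2 at that threshold, against 16.7% of all genes. After Benjamini-Hochberg adjustment it gave 0 of the 23, and also 0 over all genes. Slc2a1 (chr4:119108745-119137330) measured 4.77 and 5.41 in control and 3.24 and 3.48 in cabozantinib-treated cultures. Hk2 (chr6:82725025-82774454) measured 2.95 and 3.45 and 1.50 and 1.67. Both genes were lower on each cabozantinib array than on any of the 4 other arrays. The difference was -1.73 (SE 0.51, adjusted p = 0.0826) for Slc2a1, 3.31-fold lower, and -1.44 relative to the median gene. That of Hk2 was -1.62 (SE 0.51, adjusted p = 0.0981), 3.07-fold lower. For Slc16a3, already low after differentiation, the difference was -1.33 (SE 0.62, adjusted p = 0.24), without overlap. The tissue-restricted isozymes Aldoc and Eno2 had differences of -1.05 and -1.01, and Pfkfb3 one of -0.72, again without overlap and short of the threshold.

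Of the genes that fell with differentiation, Pfkl, Tpi1 and Pkm had no lower mean under cabozantinib than in control. Pfkl measured -2.93 and -2.24 in control and -2.41 and -2.61 with cabozantinib, and its difference was 0.08 (SE 0.50). Tpi1 differed by 0.31 and Pkm by 0.24. Pfkfb4, which had risen, differed by 0.03. Among the widely expressed isozymes the differences were -0.18 for Aldoa, -0.51 for Gapdh, -0.12 for Pgam1, -0.18 for Eno1 and -0.16 for Ldha, each with overlap and an adjusted p of at least 0.773. Hk1, Gpi1, Pfkm, Pfkp, Pgk1, Ldhb and Pdk1 lay between -0.47 and 0.09, also with overlap at their brightest probes. The standard errors of these 12 genes were 0.48 to 0.65, so differences of this size were not detectable with 2 arrays a group. In all, 6 of the 23 glycolysis genes lay below control without overlap (against 44.2% of all genes) and 2 above (against 13.4%), namely Tpi1 and Bpgm. In either direction, 8 of the 23 glycolysis and 8 of the 9 hypoxia response genes had groups without overlap, against 57.5% of all genes.

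Bpgm was the glycolysis gene with the highest difference under cabozantinib. It measured -1.60 and -1.92 in control and -0.52 and -0.59 in cabozantinib-treated cultures against -0.52 and -0.62 in undifferentiated ones, and only the 2 control arrays were below -1. The difference was 1.21 (SE 0.48, adjusted p = 0.167), or 1.50 relative to the median gene.

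**Figure D3:**
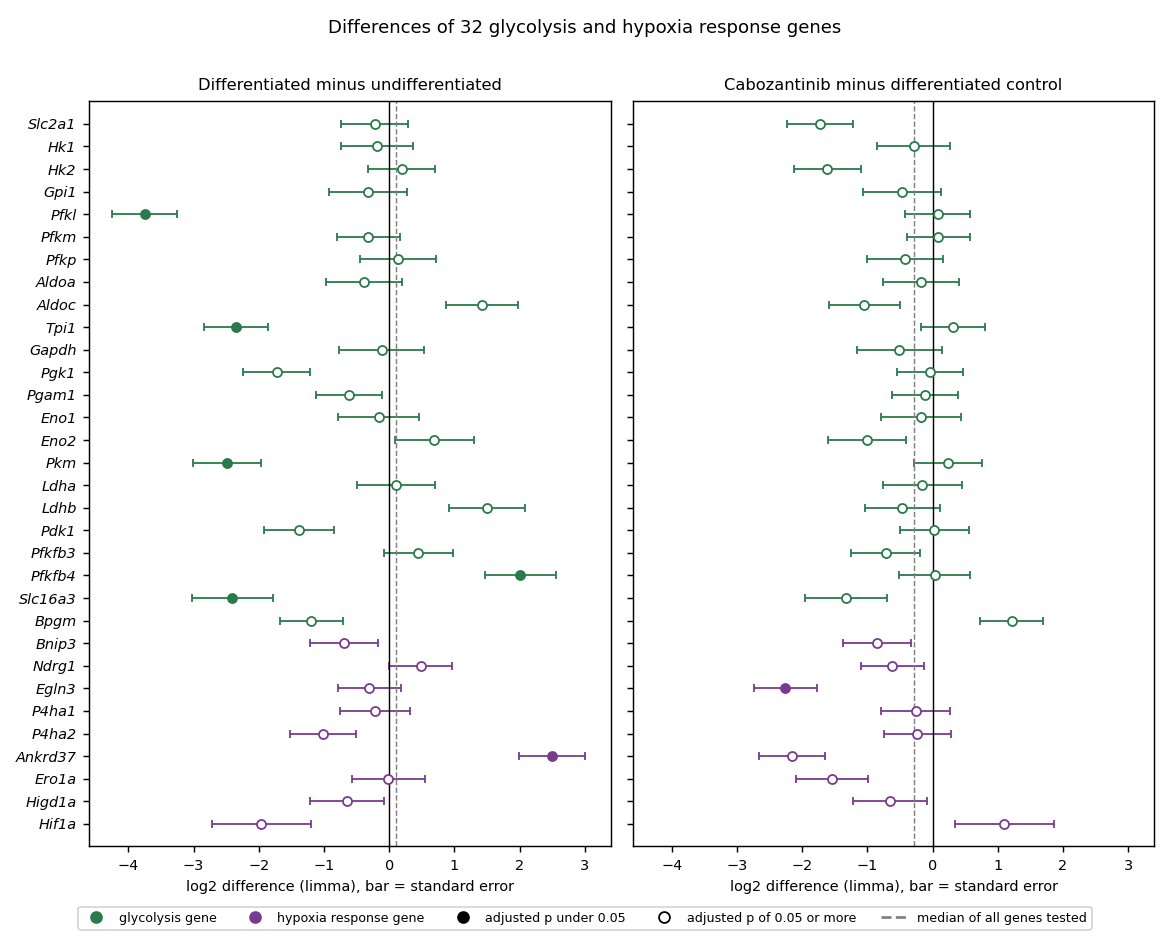
Log2 differences of the 32 tested genes (points; bars, standard error in limma) between differentiated and undifferentiated osteoblasts (left) and between cabozantinib-treated and differentiated control osteoblasts (right). Filled points have an adjusted p under 0.05, green marks glycolysis genes and purple hypoxia response genes, and the dashed line is the median of all genes (0.11 left, -0.29 right). On the left 6 genes are filled, on the right only Egln3, and on the right 8 of the 9 purple points lie below 0.

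The third comparison set cabozantinib-treated against undifferentiated osteoblasts, and it shares its arrays with the other two. Of the 32 genes, 8 were called, 1 higher and 7 lower, against 13.4% of all genes (4.67% higher and 8.68% lower). The split of calls over all genes depended on the scaling, with 35.0% of calls higher as given here and 72.2% higher after quantile normalization. The median was -0.57 for the glycolysis genes and -1.25 for the hypoxia response genes, against -0.35 for all genes. The groups did not overlap for 11 of the 23 glycolysis genes, 2 higher and 9 lower, and for 6 of the 9 hypoxia response genes, 1 higher and 5 lower, against 63.3% of all genes (19.7% higher and 43.6% lower).

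At the brightest probes Slc16a3 had the largest difference, -3.74 (SE 0.62, adjusted p = 0.00707), or 13.3-fold lower, followed by Pfkl with -3.67 (SE 0.50, adjusted p = 0.00301). Both were called in all 16 limma alternatives. The methods' t-test called neither after Benjamini-Hochberg adjustment, but it then called 0 of all 23058 genes. Slc16a3 was at -2.67 without undifferentiated replicate 1 and -4.81 without replicate 2, and without the former Pfkl, at -3.58, was the lower of the pair. Egln3 fell by 2.56 (adjusted p = 0.012), Pkm by 2.25 (adjusted p = 0.024) and Tpi1 by 2.04 (adjusted p = 0.0274). Slc2a1 and Pgk1 fell as well, by 1.95 (adjusted p = 0.0366) and 1.76 (adjusted p = 0.0488). Pfkfb4 was the gene that rose, by 2.04 (adjusted p = 0.0379), and by 2.73 or 1.35 without undifferentiated replicate 1 or 2. The calls of Egln3, Pkm, Tpi1, Slc2a1, Pgk1 and Pfkfb4 were each lost without either cabozantinib array, with adjusted p values from 0.104 to 0.511. That of Slc2a1 was also lost without undifferentiated replicate 1 (adjusted p = 0.0556), and that of Pgk1 without any 1 of the 6 arrays (adjusted p of at least 0.0614). Further genes short of the threshold at their brightest probes were Bnip3 at -1.55 (adjusted p = 0.0753), Ero1a at -1.55 (adjusted p = 0.0888) and Hk2 at -1.42 (adjusted p = 0.0914). Dimmer probes were called lower for Bnip3 (-2.33, adjusted p = 0.0188), Higd1a (-1.87, adjusted p = 0.0336) and Ldha (-5.23, adjusted p = 0.0337). For Gapdh 4 of 7 probes were called, down to -4.21 (adjusted p = 0.00322). In this comparison all 11 genes with several tested probes had the same sign at every probe. Ankrd37, in contrast, was near its undifferentiated level, at 0.34.

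Several genes had more than 1 probe, and these differed in size and at times in direction. For 11 genes with several probes tested, all probes had the same sign in 8 genes with differentiation and in 7 under cabozantinib, and the probes of a gene were more than 1 unit apart in 5 and 4 genes. Gapdh had 7 probes, and their differences with differentiation ran from -0.11 at the brightest to -5.18. One of them measured 5.12 and 4.21 in undifferentiated and 0.11 and 1.39 in differentiated cultures, where the brightest probe measured 8.72 and 7.04 and 7.39 and 8.15. In all, 3 of the 7 probes were called lower and none higher. A second Tpi1 probe gave -4.25 (adjusted p = 0.00229), in the direction of the first. For Pfkp the dimmer probe fell by 2.68 (adjusted p = 0.0113), while the brighter one differed by 0.14. Higd1a had a second probe at -1.93 (adjusted p = 0.0321). Of the 3 Ldha probes, 2 gave 0.11 and 0.08, and the third was -0.06 and 1.70 in undifferentiated cultures and not well above background in differentiated ones, at least 81.3-fold lower (measured means -6.49 and 0.82, adjusted p = 0.00803). On the cabozantinib arrays that probe was at -2.02 and -6.79, above background on the first only. A second, dimmer Hk1 probe measured -2.61 and -3.32 in undifferentiated, -2.72 and -2.46 in differentiated and -4.21 and -3.94 in cabozantinib-treated cultures. Its difference between cabozantinib and control was -1.48 (adjusted p = 0.12) without overlap, against -0.29 at the brightest probe, and with differentiation it was 0.37 (adjusted p = 0.841) against -0.19. The values of Gapdh, Ldha, Pfkp, Higd1a and Hk1 therefore rest on the probe used. So does the size of the Tpi1 fall with differentiation, at -2.35 and -4.25 by probe. Of the genes called in any comparison, Pfkl, Pkm, Pgk1, Slc2a1 and Ankrd37 had a single probe and Pfkfb4 a single tested probe. Their differences could not be checked against another probe. Probes of Slc16a3, Egln3, Gpi1, P4ha1 and Bnip3 were within 1 unit of each other in both comparisons.

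**Figure D4:**
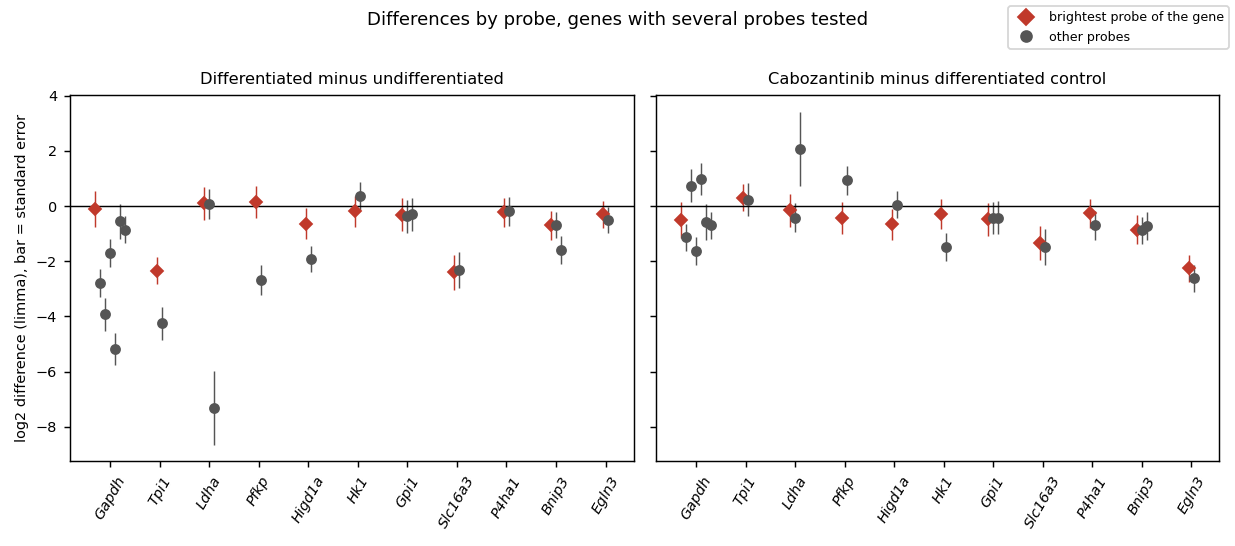
Log2 differences of each probe (points; bars, standard error in limma) for the 11 genes with several tested probes, between differentiated and undifferentiated osteoblasts (left) and between cabozantinib-treated and control osteoblasts (right). Red diamonds are the brightest probe and grey circles the others; on the left Gapdh runs from -0.11 to -5.18 and one Ldha probe lies at -7.31, while the probes of Slc16a3, Gpi1 and Egln3 lie together.

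Replicates differed in a common direction. Undifferentiated replicate 1 was higher than replicate 2 for 25 of the 32 genes, with a median gap of 0.71, against 0.43 over all genes. Differentiated replicate 1 was higher for 8 genes, with a median gap of -0.45, and cabozantinib replicate 1 for 4, with a median gap of -0.31. Among the glycolysis enzymes, Gapdh showed it with 8.72 and 7.04 in undifferentiated cultures, Eno1 with 8.17 and 6.74 and Aldoa with 7.52 and 6.27. For these genes the 2 pairs of arrays gave differentiation differences of opposite sign. The cabozantinib arrays were the closest, the widest gap being 0.71 for Eno2.

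Other genes of glucose metabolism, from a list of 48 of which 41 were tested, moved in both directions with differentiation, 4 up and 5 down. Among all genes 5.26% were called higher and 4.46% lower. The protein Bsg, which carries MCT transporters to the membrane, was at least 10.5-fold lower (measured means -6.85 and -2.46, adjusted p = 0.00294). The muscle mutase Pgam2 fell by 3.84 (adjusted p = 0.00757) and the cytosolic glycerol 3-phosphate dehydrogenase Gpd1 rose by 3.43 (adjusted p = 0.00404). The transporter Slc2a10 was at least 6.02-fold lower (measured means -6.47 and -3.32, adjusted p = 0.0293). Under cabozantinib 1 of the 41 was called, against 2.48% of all genes. It was the aldose mutarotase Galm, at least 2.41-fold lower (measured means -7.06 and -4.21, adjusted p = 0.0477). Against undifferentiated cultures the cabozantinib arrays had 4 higher and 3 lower (all genes, 4.67% higher and 8.68% lower). Among them were Slc2a4, the insulin-responsive transporter, at 3.14 (adjusted p = 0.0112), Bsg at -3.14 (adjusted p = 0.0159) and Gpd1 at 2.65 (adjusted p = 0.0156). In that comparison Galm was at least 2.13-fold lower (measured means -7.06 and -4.38, adjusted p = 0.0145). Of the 7 pentose phosphate pathway genes, the lactonase Pgls fell with differentiation by 1.83 (adjusted p = 0.0399) and was at -2.27 (adjusted p = 0.0175) in cabozantinib-treated against undifferentiated cultures. None of the 7 was called between cabozantinib and control, nor at an unadjusted p under 0.05, and they ran from -0.44 (adjusted p = 0.715) for Pgls to 0.57 (adjusted p = 0.593) for Rpia.

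A further list held 50 genes of the hypoxia response, of which 45 were tested. With differentiation 2 rose and 8 fell, against 5.26% higher and 4.46% lower among all genes. The median was -0.79, against 0.11 over all genes. Transferrin, Trf, rose by 5.59 (adjusted p = 0.000745) and heme oxygenase, Hmox1, fell by 2.86 (adjusted p = 0.025). The nuclear receptor Rora was at least 8.15-fold lower (measured means -6.95 and -2.88, adjusted p = 0.0302). Hif1an, the asparaginyl hydroxylase that inhibits HIF, was at least 4.91-fold lower (measured means -6.52 and -3.57, adjusted p = 0.00793). Between cabozantinib and control none of the 45 was called in limma, and 5 had an unadjusted p under 0.05, against 23.4% of all genes. The median was -0.13, which was 0.15 above the median gene. The lowest was carbonic anhydrase 9, Car9, with -1.44 (adjusted p = 0.158). The highest was the lysyl hydroxylase Plod1, not well above background in control and at least 2.94-fold higher with cabozantinib (measured means -4.27 and -5.89, adjusted p = 0.105). Against undifferentiated cultures 1 was higher and 7 lower under cabozantinib (all genes, 4.67% higher and 8.68% lower). Trf was at 4.72 (adjusted p = 0.00217), the mitochondrial adenylate kinase Ak4 at -3.67 (adjusted p = 0.00261) and Hmox1 at -2.54 (adjusted p = 0.037). In the same comparison Igfbp3, a binding protein of insulin-like growth factors, was at least 4.37-fold lower (measured means -7.00 and -3.35, adjusted p = 0.00326).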

How the data were processed

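RNA of 6 osteoblast cultures was measured on 6 1-color arrays. The authors deposited scanner output from Agilent Feature Extraction 11.0.1.1, and per the file headers the processed signal is an intensity that is already background-subtracted. They also deposited a table of log2 values for 30439 probes, whose normalization is not given in the sources used here. It was used as an alternative only.

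Control spots and spots with an outlier flag were left out, and spots of a probe were averaged. The 40 probes that passed the background filter but then lacked a value on some array were left out as well. The log2 processed signal minus the 75th percentile of each array was analyzed in limma 3.58.1 (lmFit, eBayes; R 4.3.3 with jsonlite 2.0.0 and the data.table package, version 1.17.8). Probes were kept if well above background on at least 2 of 6 arrays (27196 probes, 23058 genes). The model held group and replicate number over all 6 arrays (2 residual and 7.67 prior degrees of freedom), since the study's methods name a paired test. Benjamini-Hochberg adjustment ran over all probes kept, and a gene was given by its brightest probe. Through RefSeq accessions 27234 of 39429 probes (69.1%) were named, for 20659 genes, and coordinates are those of GRCm38.p6. Probes that matched no accession count as genes of their own. Where a probe was not well above background on any array of a group, its fold is a lower bound. It sets the mean of the brighter group against the mean, over the arrays of the dimmer group, of the higher of the lowest signal well above background and the measured signal. The fit was tested on simulated data with a replicate effect shared by all groups. In the measured data, undifferentiated arrays deviated opposite to same-numbered arrays of the other groups, as given below. The simulation did not cover that pattern. Python 3.11.15 with pandas 2.3.3 and matplotlib 3.10.9 was used for sequences and plots.

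The members and all gene lists were chosen with earlier results of these data known. All 33 members are named. From the lists of other glucose, pentose phosphate and hypoxia genes, at most 4 called genes per list and comparison are named by size of the difference, or the highest and the lowest where none was called. Alternatives were quantile normalization, normexp background correction (offset 50, on the median signal), the authors' log2 values, filters on dim probes, no replicate block, the 4 arrays compared only, the mean of a gene's probes, leaving out each array, and the methods' t-test. The 75th percentile over spots and an exchange of replicate numbers were added after seeing the data. Pathway, protein and PCR results of the study were not analysed here.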

Additional observations from a re-analysis of the deposited data

How the results depend on the processing

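Values are given for 23 glycolysis and 9 hypoxia response genes. D-C is differentiated minus undifferentiated, X-D cabozantinib minus differentiated control and X-C cabozantinib minus undifferentiated. As reported, 5, 0 and 7 glycolysis genes and 1, 1 and 1 hypoxia response genes were called in D-C, X-D and X-C. With normexp these became 1, 0 and 2 and 0, 0 and 0, and the X-D medians -0.32 (glycolysis) and -0.50 (hypoxia). With no filter on dim probes, 3 glycolysis genes were called in D-C and 2 in X-C, 0 hypoxia response genes in X-D, and the hypoxia median in D-C was -0.26. Quantile normalization gave medians of -0.33 (hypoxia, D-C), -0.024 (glycolysis, X-D) and -0.51 (hypoxia, X-D), and the authors' values gave -0.33, -0.024 and -0.51. Under both, under the stricter filter and under the 75th percentile over spots (chosen after seeing the data), 0 hypoxia response genes were called in X-D. The mean of a gene's probes gave medians of -0.41 (hypoxia, D-C) and -0.62 (hypoxia, X-D) and called 2 hypoxia response genes in each of X-D and X-C. It turned Ldha in D-C from 0.11 to -2.37 (adjusted p = 0.0383), because the third probe entered. With only the 4 arrays compared, 6 glycolysis and 2 hypoxia response genes were called in X-D. The methods' t-test at an unadjusted p under 0.05 gave 0 calls in both lists in D-C, and 2 glycolysis genes in each of X-D and X-C. After Benjamini-Hochberg adjustment it gave 0 in both lists in all 3 comparisons. It also gave 0 over all genes in each, so these zeros do not describe the lists.

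Same-numbered arrays deviated in opposite directions for undifferentiated against differentiated (correlation -0.51) and cabozantinib arrays (-0.53) and in the same direction for the other pair (0.26), over 27196 probes. The main fit and the methods' t-test still used the numbers as given, so their standard errors and calls rest on that pairing. Whether the numbers of the undifferentiated arrays were exchanged was not tested. With no replicate block, 2 glycolysis and 2 hypoxia response genes were called in X-D and 3 hypoxia response genes in X-C, and calls over all genes rose from 572 to 2947 in X-D and from 3079 to 5565 in X-C. With the replicate block and the numbers of the undifferentiated arrays exchanged, a pairing chosen after seeing the data, 10 and 3 genes of the 2 lists were called in D-C, 6 and 4 in X-D and 10 and 5 in X-C, and 6025, 7049 and 10292 over all genes.

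Leaving out 1 array at a time gave, for the glycolysis genes, 1 to 8 calls and medians of -0.88 to 0.58 in D-C, 0 to 6 and -0.78 to 0.067 in X-D, and 2 to 13 and -1.28 to 0.17 in X-C. The hypoxia response genes had 0 to 2 calls and medians of -0.47 to -0.14 in D-C, 0 to 2 and -0.98 to -0.56 in X-D, and 0 to 4 and -1.54 to -0.78 in X-C. Where a group was left with 1 array, it was assumed to vary like the other groups. Calls over all genes also changed with the array left out, so the ranges of calls do not describe the lists alone. The all-gene medians ran from -0.25 to 0.49 in D-C, -0.56 to -0.17 in X-D and -0.69 to -0.17 in X-C.

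Over all genes, the calls in X-D (572) were 0 with quantile normalization, normexp, the authors' values and no filter, 2 with the stricter filter, 1 with the percentile over spots, 1105 with the mean of probes and 5544 with 4 arrays. Those in D-C (2242) were 674 with normexp and 1415 with no filter. Those in X-C (3079, of which 35.0% higher) were 1308 (72.2%) with quantile normalization, 464 (67.2%) with normexp, 1310 (73.0%) with the authors' values, 1174 (52.3%) with no filter and 1350 (55.4%) with the stricter filter. Apart from the Ldha probe, the cause of these shifts was not tested. Signal over background limited Egln1 and the dim probes given as lower bounds, and 2 arrays a group limited all values.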
